A study of Mus musculus with 27 samples.

Results

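Hearts of mouse embryos that carried deletions of 1 copy of Nkx2-5 and 1 copy of Brg1 were compared with hearts that carried the Brg1 deletion alone, so that the difference between the groups is the Nkx2-5 deletion on a Brg1-deficient background. The arrays were chosen by their genotype label, 3 for Nkx2-5+/-;Brg1+/- and 6 for Brg1+/-, which is 9 of the 27 arrays in the series, and all 19935 genes with a named probe set were examined. All hearts were dissected at E11.5 from a C57Bl/6/BLKSW mix, and their total RNA, with a biotin label, was read on Affymetrix arrays, 1 per sample. The other groups used here were Nkx2-5+/- (4 arrays) and wild type (6 arrays), which give the Nkx2-5 deletion on a background with both copies of Brg1. Tbx5+/- (5 arrays) and Tbx5+/-;Brg1+/- hearts (3 arrays), with a deletion of the transcription factor gene Tbx5, entered the shared estimate of spread and the ranges over the whole series. The labels name no allele, litter or sex, do not say which part of a gene was removed, and do not say how many embryos gave 1 sample, so the p-values measure the spread between these samples, which may be technical.

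Nkx2-5 is a homeodomain transcription factor of the cardiac lineage that switches on genes of the working heart muscle and holds down genes of the heart's progenitors and its pacemaker tissue. Smarca4 encodes Brg1, the motor subunit of the BAF complex, which moves nucleosomes and so opens chromatin to transcription factors, and the hearts of both groups carried 1 deleted copy of it. Humans and mice with a single working copy of NKX2-5 can have septal defects and defects of atrioventricular conduction.

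The array signals are on a log2 scale, and their correlation between any 2 of the 9 arrays lay between 0.978 and 0.993. The heart label fitted the defining muscle genes: the signals in the Nkx2-5+/-;Brg1+/- arrays were 11.94, 11.77 and 11.83 for Myh6, and Tnnt2 stood at 13.15, 12.96 and 12.82, against medians of 11.79 for Myh6 and 12.92 for Tnnt2 in Brg1+/- arrays. By Y-linked genes, 2 of the 3 Nkx2-5+/-;Brg1+/- arrays and 3 of the 6 Brg1+/- arrays were male-like. Nkx2-5+/- replicate 3, which enters the comparison with wild type, the interaction described below and the shared estimate of spread, had a signal of 9.40 for Nkx2-5 and 9.57 for Smarca4, both against its label. Tbx5+/-;Brg1+/- replicate 3, which enters the shared estimate of spread, had a Smarca4 signal of 10.01, also against its label. That value lies inside the wild-type range of 9.95 to 10.16.

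The targeted genes were read first. Nkx2-5 (probe set 10449292) had signals of 9.03, 9.24 and 8.85 in Nkx2-5+/-;Brg1+/- hearts, against a lowest, median and highest signal of 8.99, 9.46 and 9.64 in Brg1+/- hearts. The groups overlapped, and the log2 difference was -0.35 (SE 0.19, limma adjusted p = 0.607, n = 3 and 6), whereas it was -0.85 (adjusted p = 0.0070) between Nkx2-5+/- and wild-type hearts, and the test of that difference in size gave 0.50 (adjusted p = 0.271). Smarca4 (probe set 10583697), which both groups lack 1 copy of, had signals of 9.48, 9.26 and 9.60 against 9.16, 9.36 and 9.45, a log2 difference of 0.13 (adjusted p = 0.812).

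Over all 19935 genes, 4 passed limma's test at a Benjamini-Hochberg adjusted p under 0.05, and 1729 had an unadjusted p under 0.05. Of the 4, Lyz2 and Lyz1 fell (0.01% of genes) and Tph2 and Cyp2c68 rose (0.01% of genes). A wider, untested description is the number of genes whose 3 Nkx2-5+/-;Brg1+/- arrays all lie outside the range of the 6 Brg1+/- arrays, which were 493 higher (2.47%) and 229 lower (1.15%). The median difference over all genes was 0.01. The number of calls changed when 1 array was left out, which also leaves fewer arrays to test with. Without Nkx2-5+/-;Brg1+/- replicate 2, 0 genes passed (limma, 1108 at an unadjusted p under 0.05). Without replicate 1 of that group 1 gene passed, and without replicate 3, 3 genes. The count was 1, 2, 3, 1, 7 and 2 without Brg1+/- replicates 1, 2, 3, 4, 5 and 6.

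**Figure D1:**
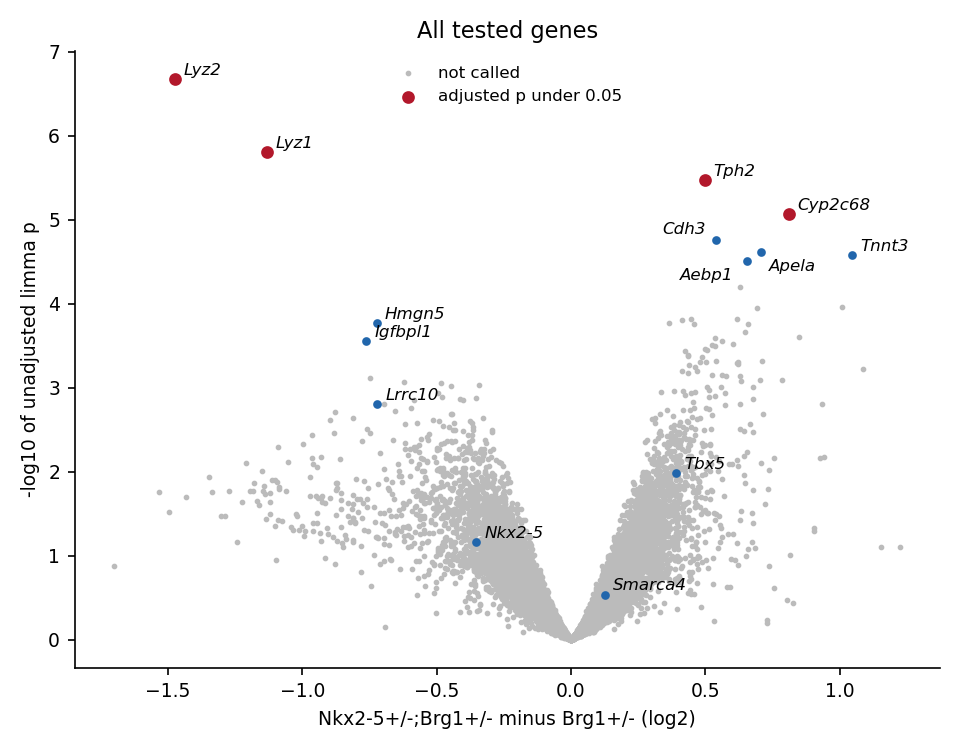
Log2 difference between Nkx2-5+/-;Brg1+/- and Brg1+/- hearts (x axis) against the -log10 of limma's unadjusted p (y axis), 1 point for each of 19935 genes. The 4 genes past an adjusted p of 0.05 are in red, with Lyz2 at -1.47 farthest to the left among them, and blue points are other genes named in the text.

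The 2 genes that fell encode lysozymes, enzymes that break down bacterial cell walls. Lyz2, a marker of macrophages and other myeloid cells, had signals of 6.37, 5.60 and 6.14 in Nkx2-5+/-;Brg1+/- hearts, against 6.99, 7.52 and 7.89 (lowest, median, highest) in Brg1+/- hearts. No array of one group reached the other, and the log2 signal of Lyz2 fell by 1.47 (SE 0.22, limma adjusted p = 0.0042), which is 2.78-fold lower. Its paralog Lyz1 had signals of 5.83, 5.89 and 5.97, against 6.71, 6.90 and 7.44, again without overlap. It fell by 1.13 (SE 0.19, adjusted p = 0.0157), 2.19-fold lower. The paralogs are close in sequence, so their probe sets (10372648 and 10372652) may share signal, which was not tested.

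With both copies of Brg1 present, between Nkx2-5+/- and wild-type hearts, the difference was -1.61 for Lyz2 and -1.21 for Lyz1. The interaction, the difference of the differences, was 0.13 for Lyz2 (SE 0.29, adjusted p = 0.870) and 0.08 for Lyz1 (SE 0.25, adjusted p = 0.913), and neither passed. Across the whole series the 7 arrays labelled with an Nkx2-5 deletion, of both backgrounds, had Lyz2 signals between 5.60 and 6.44, and the 20 arrays without one between 6.99 and 8.21. For Lyz1 the ranges were 5.36 to 6.05 and 6.54 to 7.44. Nkx2-5+/- replicate 3, whose Nkx2-5 and Smarca4 signals went against its label, lay inside the low ranges for both genes. Between Nkx2-5+/-;Brg1+/- and Brg1+/- hearts, other macrophage genes lay mostly on the other side of 0. Of the 21 on the list, which includes both lysozymes, 16 lay above 0, with a median of 0.11, and Csf1r, the receptor that macrophages depend on, Adgre1 and Mrc1 stood at 0.36, 0.23 and 0.30 (adjusted p = 0.607, 0.717 and 0.740). The list means were 6.16, 5.83 and 6.04, against 5.90, 6.00 and 6.22. Between Nkx2-5+/- and wild-type hearts the macrophage list had a median of -0.27. There 4 of the 21, the lysozymes included, were called lower, against 5.16% of all genes. Csf1r, Mrc1 and Adgre1 stood at -0.58, -0.70 and -0.44 in that comparison (limma adjusted p = 0.0389, 0.0321 and 0.0515). Lyz2 was called in 20 of 21 alternative settings and Lyz1 in 15 of 21; without Nkx2-5+/-;Brg1+/- replicate 2, Lyz2 stood at -1.25 (adjusted p = 0.149) and Lyz1 at -1.13 (adjusted p = 0.149). The Lyz1 call also ended without Nkx2-5+/-;Brg1+/- replicate 1 or 3 or Brg1+/- replicate 1 or 4, at values between -1.17 and -1.05 (adjusted p = 0.0537 to 0.202). With the mean of the erythroid genes as a covariate Lyz2 stayed called (-1.59, adjusted p = 0.00457) and Lyz1 stood at -1.14 (adjusted p = 0.072).

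Lyz2 and Lyz1 are next to each other on chromosome 10, and Tph2 lies on the same chromosome with 23 tested genes between it and Lyz2. That chromosome holds 938 of the 19935 tested genes and 3 of the 4 called genes. Of these 3, the lysozymes are paralogs whose probe sets may share signal, and Tph2 changed in the other direction. Nkx2-5 is on chromosome 17. Near the lysozyme genes, the heart muscle gene Lrrc10, which encodes a leucine-rich repeat protein of the cardiac sarcomere, had signals of 6.59, 6.31 and 6.69 in Nkx2-5+/-;Brg1+/- hearts, against 6.90, 7.25 and 7.58 in Brg1+/- hearts, and so was lower without overlap, at a log2 difference of -0.72 (adjusted p = 0.385). Between Nkx2-5+/- and wild-type hearts Lrrc10 fell by 1.06 (adjusted p = 0.00361). None of the neighbours tested, Lrrc10 included, passed between Nkx2-5+/-;Brg1+/- and Brg1+/- hearts. Of the neighbours other than Lrrc10, those nearest to the lysozyme genes included Cct2, a chaperonin subunit, at -0.11. The chromatin gene Yeats4 stood at -0.09 and the RNA cleavage factor gene Cpsf6 at -0.11. The largest values among the rest were 0.38 for the transporter gene Slc35e3 (adjusted p = 0.522), 0.31 for the carboxypeptidase gene Cpm (adjusted p = 0.666) and -0.29 for Mdm2, the ubiquitin ligase of p53 (adjusted p = 0.578). The sequences before the start sites of the called genes and Lrrc10 are shown because NK-2 class factors such as Nkx2-5 bind the letters TNAAGTG. Matches on either strand are in capitals, the 250 bases run 5′ to 3′ in the direction of the gene, and the sequences are RefSeq's on GRCm38.p6.
Lyz2 (chr10:117282273-117282522, minus strand): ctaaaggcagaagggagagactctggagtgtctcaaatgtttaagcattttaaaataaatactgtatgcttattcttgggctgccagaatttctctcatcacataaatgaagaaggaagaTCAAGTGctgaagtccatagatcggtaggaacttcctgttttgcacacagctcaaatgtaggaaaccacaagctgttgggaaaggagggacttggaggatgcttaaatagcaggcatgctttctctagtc
Lyz1 (chr10:117292869-117293118, minus strand): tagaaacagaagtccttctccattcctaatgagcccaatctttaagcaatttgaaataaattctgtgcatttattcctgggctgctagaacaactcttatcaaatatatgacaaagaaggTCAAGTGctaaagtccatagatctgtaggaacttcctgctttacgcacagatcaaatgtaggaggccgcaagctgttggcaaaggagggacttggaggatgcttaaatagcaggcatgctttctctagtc
Lrrc10 (chr10:117045091-117045340, plus strand): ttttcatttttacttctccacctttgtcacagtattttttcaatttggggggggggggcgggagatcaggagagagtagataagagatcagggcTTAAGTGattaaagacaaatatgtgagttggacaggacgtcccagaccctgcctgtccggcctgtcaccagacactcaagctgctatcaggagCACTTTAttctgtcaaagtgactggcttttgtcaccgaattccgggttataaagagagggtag
Cyp2c68 (chr19:39741102-39741351, minus strand): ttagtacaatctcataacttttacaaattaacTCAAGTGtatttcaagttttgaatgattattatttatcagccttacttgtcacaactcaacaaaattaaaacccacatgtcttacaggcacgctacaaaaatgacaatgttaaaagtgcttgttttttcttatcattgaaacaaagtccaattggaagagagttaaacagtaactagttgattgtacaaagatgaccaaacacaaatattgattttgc
Tph2 (chr10:115185023-115185272, minus strand): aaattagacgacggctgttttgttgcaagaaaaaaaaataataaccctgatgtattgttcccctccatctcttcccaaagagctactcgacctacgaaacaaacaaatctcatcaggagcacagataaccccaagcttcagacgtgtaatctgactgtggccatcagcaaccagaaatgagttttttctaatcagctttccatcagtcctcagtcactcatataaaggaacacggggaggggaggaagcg
Lyz2 and Lyz1 each held 1 match, beginning 130 bases before the start in both, and had the same letter at 152 of 250 positions (60.8%) when aligned without gaps. Lrrc10 held 2 matches, Cyp2c68 held 1, and the letters were not found in the window of Tph2. Of 32851 promoters of this length in the table, 3305 (10.1%) held the motif, and a match describes the letters only.

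The 2 genes that rose have low signals. Tph2 makes serotonin in neurons and had signals of 4.18, 4.39 and 4.10, against 3.60, 3.72 and 3.82 in Brg1+/- hearts. The groups did not overlap, and Tph2 rose by 0.50 (SE 0.09, adjusted p = 0.0223). Cyp2c68, a cytochrome P450 enzyme, had signals of 3.31, 2.86 and 3.17, against 2.22, 2.29 and 2.44, and rose by 0.81 (SE 0.15, adjusted p = 0.0428). Both lay under a log2 signal of 5 in every array of the 2 groups. Between Nkx2-5+/- and wild-type hearts they stood at 0.07 and -0.24 (adjusted p = 0.646 and 0.304). The interaction passed for each, at 0.42 for Tph2 (adjusted p = 0.0339) and 1.06 for Cyp2c68 (adjusted p = 0.0166). Both genes were picked by the difference from Brg1+/- hearts, which is part of the interaction, so its call is no separate support. With the erythroid or cell cycle mean as a covariate, limma called 0 interactions over all genes. In the difference from Brg1+/- hearts, Tph2 was called in 11 and Cyp2c68 in 7 of 20 alternatives. The Tph2 call ended without Nkx2-5+/-;Brg1+/- replicate 1 or 2 or Brg1+/- replicate 1, 2, 4 or 6, at values of 0.42 to 0.52 (adjusted p = 0.0535 to 0.346). It ended too with the 2 groups fitted alone (adjusted p = 0.276). With the erythroid mean as a covariate neither gene was called (adjusted p = 0.164 for Tph2 and 0.259 for Cyp2c68), nor with the cell cycle mean (0.123 and 0.168). Cyp2c68 also missed with equal array medians (0.0536) and the Y-linked mean as a covariate (0.0594). Leaving out 1 array ended the Cyp2c68 call for each of the 9 arrays of the 2 groups, at an adjusted p of 0.0502 or more.

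**Figure D2:**
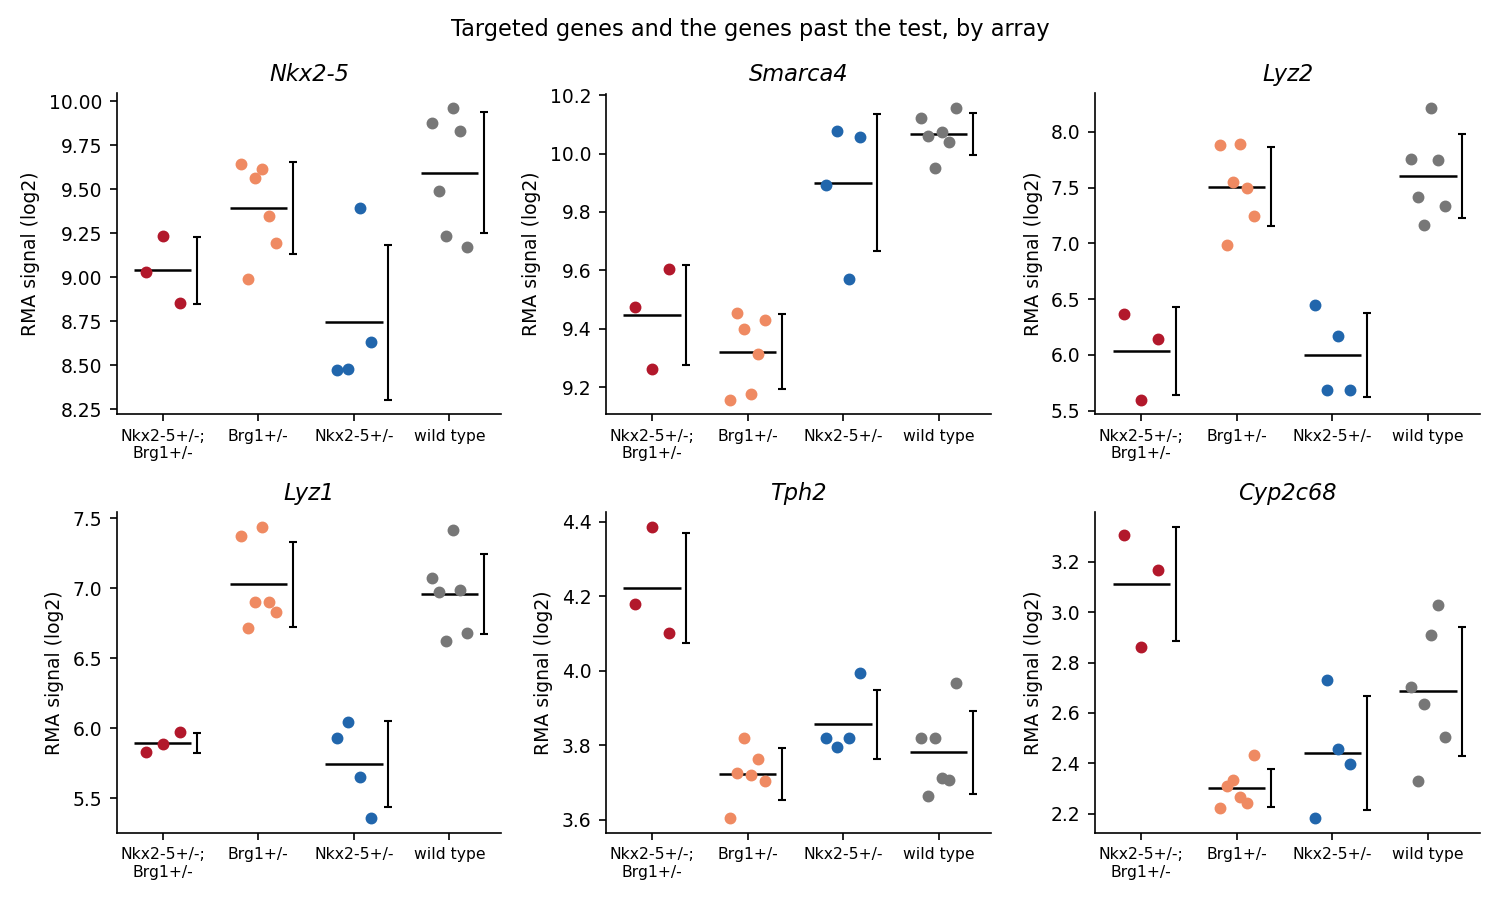
Log2 signal (y axis) of the targeted genes Nkx2-5 and Smarca4 and of the 4 genes past the test, 1 point per array, in Nkx2-5+/-;Brg1+/-, Brg1+/-, Nkx2-5+/- and wild-type hearts from left to right. Lines are group means and bars to their right the SD, and the y axes do not start at 0; Lyz2 lay at 5.60 to 6.37 in Nkx2-5+/-;Brg1+/- arrays and at 6.99 to 7.89 in Brg1+/- arrays.

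Below the threshold, the genes with the smallest p that were higher included genes of adhesion, signalling and the matrix. Cdh3, P-cadherin, an adhesion protein of epithelia, had signals of 9.25, 9.37 and 9.38, against 8.61, 8.80 and 8.96, a difference of 0.54 (adjusted p = 0.0703). Apela, a ligand of the apelin receptor, stood at 0.71 (adjusted p = 0.0747), and Aebp1, a protein of the extracellular matrix, at 0.65 (adjusted p = 0.0777). In each of these 3 genes the groups did not overlap, and none passed the test. Tnnt3, a troponin of fast skeletal muscle, had signals of 8.44, 8.98 and 8.13, against 7.16, 7.47 and 7.85, a difference of 1.05 (adjusted p = 0.0747). The matrix gene Svep1 stood at 0.63 (adjusted p = 0.142), and the transcription factor gene Myrf, the pseudogene Nlrp5-ps, the bicarbonate transporter gene Slc4a4, the semaphorin receptor gene Plxna4 and Ccdc74a at 0.41 to 1.01 (adjusted p = 0.192 for each).

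On the lower side, the values with the smallest p after the lysozymes were those of Hmgn5, a nucleosome-binding protein, at -0.72 (adjusted p = 0.192), and Igfbpl1, related to the binding proteins of insulin-like growth factors, at -0.76 (adjusted p = 0.239). Igfbpl1 had signals of 6.62, 6.98 and 6.47, against 7.14, 7.49 and 7.72. It did not overlap either, and in Nkx2-5+/- hearts it fell by 1.04 against wild type (adjusted p = 0.00229). Tagln3, a transgelin, stood at -0.62 (adjusted p = 0.318) and fell by 0.79 in Nkx2-5+/- hearts (adjusted p = 0.00543). The phosphatase genes Acp1 and Ppm1d and the splicing factor genes Slu7 and Prpf18 stood between -0.75 and -0.45 (adjusted p = 0.309 to 0.357). The Acp1 value is that of its brightest probe set, 10606532, and 1 of its 5 probe sets, 10399820, went the other way, at 0.33. By number, 10399820 lies near the probe set of Vsnl1 (10399407), which like Acp1 is on chromosome 12. The number 10606532 lies near that of Hmgn5 (10606436), on chromosome X. Which of the 5 reads the Acp1 gene was not tested.

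The members of the gene lists were then read as groups. Genes of the epicardium, the outer cell layer of the heart that supplies fibroblasts and coronary smooth muscle, lay mostly above 0 in this difference. Of the 19 measured of 20, 18 lay above 0 with a median log2 difference of 0.38 (0.01 over all genes), and 9 (47.4%) lay above every Brg1+/- array, against 2.47% of all genes. None of the 19 passed the test, and 10 were higher at an unadjusted limma p under 0.05, against 876 of all 19935 genes. Tcf21, a transcription factor of epicardium-derived fibroblasts, had signals of 9.70, 9.79 and 9.90, against 9.29, 9.36 and 9.55 in Brg1+/- hearts (0.39, adjusted p = 0.460). Wt1, the transcription factor that defines the layer, had 9.21, 9.29 and 9.10, against 8.50, 8.72 and 9.09 (0.46, adjusted p = 0.460). In both genes every Nkx2-5+/-;Brg1+/- array lay above every Brg1+/- array. Bnc1 stood at 0.56, the sulfatase gene Sulf1 at 0.68, Upk3b, of the mesothelium, at 0.41, and Aldh1a2, which makes retinoic acid, at 0.40 (adjusted p = 0.329, 0.360, 0.473 and 0.593). The mean over the list was 8.69, 8.65 and 8.69, against 8.22, 8.29 and 8.46, and it lay between 7.95 and 8.42 in Nkx2-5+/- hearts and between 8.32 and 8.70 in wild-type hearts. In bulk tissue, more cells of a type and more RNA per cell cannot be told apart.

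**Figure D3:**
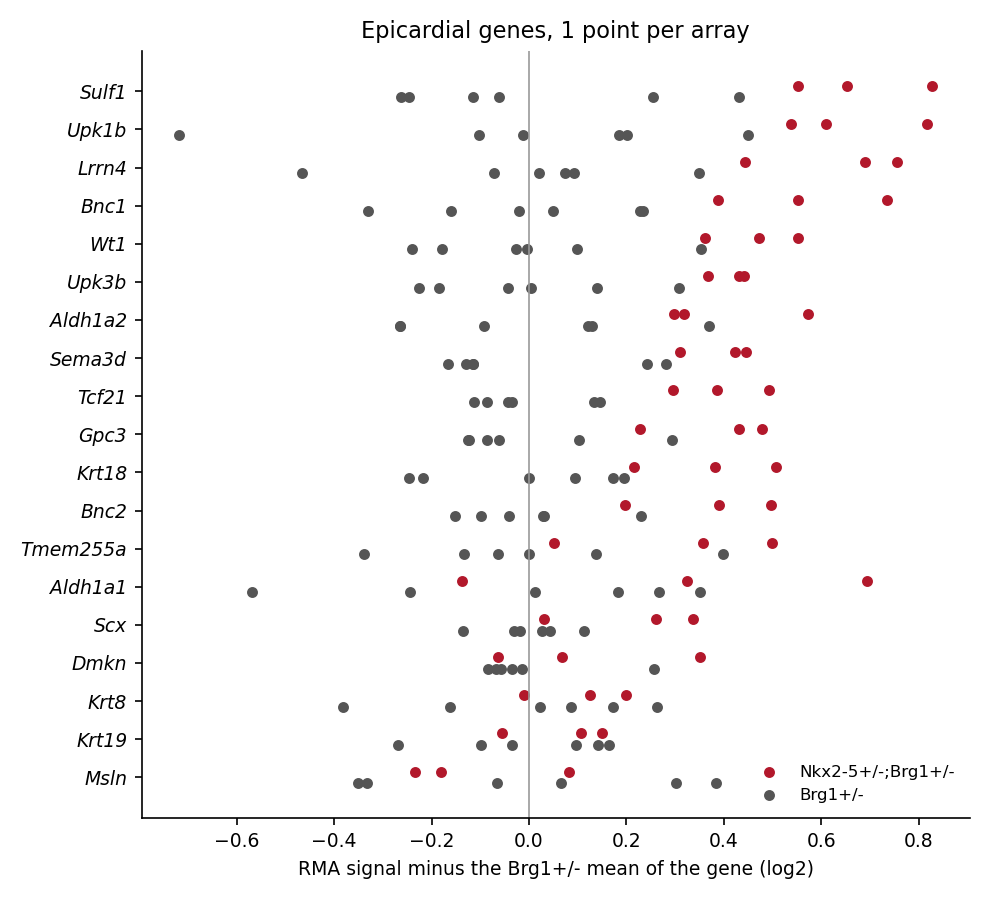
Log2 signal of the 19 epicardial genes as the difference from the gene's Brg1+/- mean (x axis), 1 point per array, with Nkx2-5+/-;Brg1+/- arrays in red above Brg1+/- arrays in grey. 18 of the 19 genes have a mean above 0, and in 9 no red point falls among the grey ones.

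Genes held down by Nkx2-5 or marking tissue around the sinus node formed the next list. Of 11 measured, 10 lay above 0 (against 51.7% of all genes), with a median of 0.36. Of these, 4 (36.4%) lay above every Brg1+/- array, against 2.47% of all genes. Tbx18, a transcription factor of the sinus node and epicardium, had signals of 9.996, 10.002 and 9.974, against 9.19, 9.45 and 9.89, a difference of 0.52 (adjusted p = 0.460). Hcn4, the pacemaker channel, stood at 0.48 (adjusted p = 0.518), Tbx3, the pacemaker transcription factor, at 0.37 (adjusted p = 0.507), and the growth factor gene Bmp4 at 0.36 (adjusted p = 0.510). Shox2, also of the sinus node, stood at 0.50 with overlap, and Isl1, of the progenitors, at -0.01. Between Nkx2-5+/- and wild-type hearts the list had a median of -0.19, with 0 members called higher and 2 lower. Shox2 was 1 of these, at -0.80 (limma adjusted p = 0.018). The list mean was 7.74, 7.67 and 7.74 in Nkx2-5+/-;Brg1+/- hearts, inside the wild-type range of 7.54 to 7.93.

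Transcription factors of the heart lay mostly above 0 (19 of 22, against 51.7% of all genes, median 0.21). Of these, 5 (22.7%, against 2.47% of all genes) lay above every Brg1+/- array: Gata4, Gata5, Gata6, Zfpm2 and Hand2, at 0.32, 0.21, 0.30, 0.24 and 0.25 (adjusted p = 0.527 to 0.802). The list mean was 8.50, 8.41 and 8.49 in Nkx2-5+/-;Brg1+/- hearts, inside the wild-type range of 8.27 to 8.60. Tbx5 had signals of 8.56, 8.39 and 8.56, against 7.83, 8.13 and 8.35, and the difference was 0.39 (adjusted p = 0.503). It did not overlap. In wild-type hearts the Tbx5 signals lay between 8.40 and 8.96, and Brg1+/- hearts stood at -0.45 against wild type (limma adjusted p = 0.328). Irx5, which patterns repolarisation across the heart wall, lay below every Brg1+/- array at -0.29 (adjusted p = 0.607). Of the cushion mesenchyme list, 18 of 23 lay above 0 (median 0.26). Fbln2, a matrix protein of the cushions, had 10.05, 10.16 and 10.31, against 8.56, 9.37 and 10.02, and stood at 0.85 (adjusted p = 0.239), and the collagen gene Col1a2 at 0.76 (adjusted p = 0.476), both without overlap.

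Genes that Nkx2-5 switches on and genes of the muscle had medians close to that of all genes between Nkx2-5+/-;Brg1+/- and Brg1+/- hearts. Of 23 activated genes, 15 lay above 0 with a median of 0.04, and the groups overlapped in each. Nppa, the atrial natriuretic peptide, had signals of 12.24, 12.42 and 12.23, against 12.32, 12.57 and 13.23, a difference of -0.35 (adjusted p = 0.730), and Hopx stood at -0.40 (adjusted p = 0.559). Myl2 and Nppb stood at 0.04 and 0.32. Between Nkx2-5+/- and wild-type hearts the activated list had a median of -0.38, and 6 of 23 were called lower, against 5.16% of all genes. There Hopx, Nppa, Myl2 and Nppb stood at -0.89, -0.78, -0.42 and -0.21 (limma adjusted p = 0.00543, 0.0328, 0.015 and 0.547). The activated list mean was 9.88 in Nkx2-5+/- replicate 3, above the wild-type range of 9.41 to 9.71. It was 8.89 to 9.10 in the other Nkx2-5+/- arrays. The erythroid list mean was 8.95 in replicate 3, 10.71 to 10.98 in the other Nkx2-5+/- arrays and 8.33 to 9.96 in wild type. What that array or red cell content adds to these calls was not tested. The median interaction of the activated list was 0.46, with 0 members called. The sarcomere list had a median of 0.07 (20 of 32 above 0), the mitochondrial and fatty acid list 0.03 and the calcium handling list 0.02, and no member passed limma's test. Myh6 stood at 0.14 and Myh7 at -0.17. Of 25 BAF subunits 15 lay above 0, with a median of 0.02 and values from -0.37 to 0.29. Of these 25, 1 (4%, against 1.15% of all genes) lay below every Brg1+/- array and 0 lay above. The accessory subunit genes Arid1a and Arid1b stood at 0.28 and 0.29 with overlap (adjusted p = 0.530 and 0.521).

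Red blood cell genes lay below 0. This held for all 17 measured of 20, with a median of -1.0. None passed limma's test, and 13 were lower at an unadjusted p under 0.05, against 853 of all 19935 genes. Alas2, which makes heme in red cells, had signals of 10.61, 9.77 and 11.45, against 10.77, 12.08 and 12.32 (-1.21, adjusted p = 0.486). Gata1, the transcription factor of the lineage, had 7.79, 7.06 and 8.81, against 7.84, 8.91 and 10.08 (-1.07, adjusted p = 0.549). The groups overlapped in both. The list mean was 8.77, 8.02 and 9.80, against 8.79, 10.0001 and 10.73 in Brg1+/- hearts. It lay between 8.33 and 9.96 in wild-type hearts and between 8.95 and 10.98 in Nkx2-5+/- hearts. The cell cycle list had 2 of 31 members above 0 (median -0.24), with Top2a at -0.40 and Mki67 at -0.53 (adjusted p = 0.507 and 0.726). With the erythroid mean as a covariate, the median of the heart transcription factors was 0.03, that of the sinus node list 0.24 and that of the epicardium list 0.33. The part of red cell content in these differences was not tested further.

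**Figure D4:**
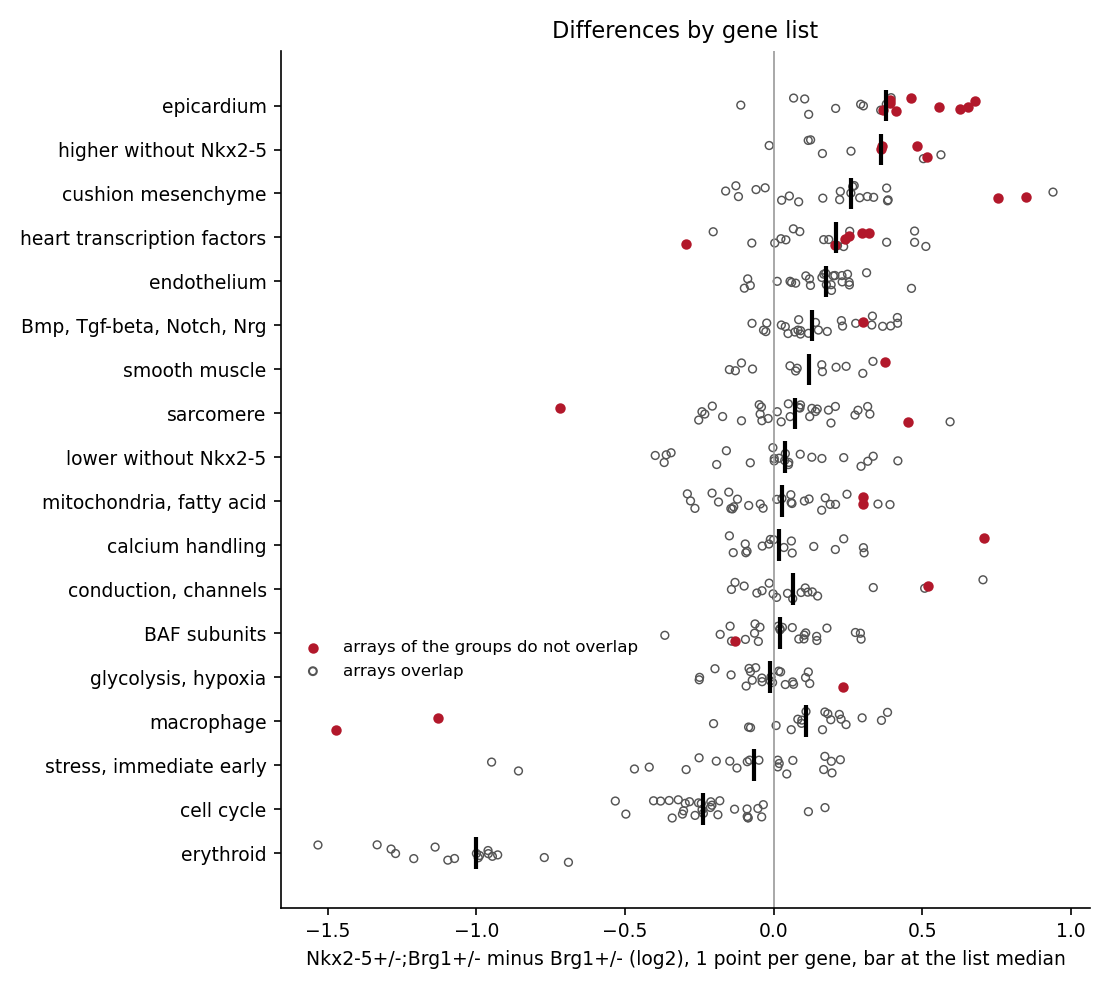
Log2 difference between Nkx2-5+/-;Brg1+/- and Brg1+/- hearts (x axis) for the genes of 18 lists, 1 point per gene with the list's median as a bar, and filled points where no array of one group lies inside the range of the other. The epicardium list has a median of 0.38, the sarcomere list 0.07 and the erythroid list -1.0.

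The interaction asks whether Nkx2-5 loss acts otherwise with 1 copy of Brg1 than with both, as the difference between the hearts above minus that between Nkx2-5+/- and wild-type hearts. It was called above 0 for 445 genes (2.23%) and below 0 for 542 (2.72%). Those above 0 included Tbx5 (0.88, adjusted p = 0.0189), Apela (1.12, adjusted p = 0.0131), Aebp1 (1.09, adjusted p = 0.0131) and Slc4a4 (0.82, adjusted p = 0.0131). Apela, Aebp1 and Slc4a4 had been named for a small p in the difference from Brg1+/- hearts, which is part of the interaction. With array medians made equal, 267 were above and 744 below. The sarcomere list had a median interaction of 0.67: its members stood at 0.07 here and -0.56 between Nkx2-5+/- and wild-type hearts, where 18 of 32 passed as lower, against 5.16% of all genes. For the mitochondrial list the medians were 0.03 and -0.47, with a median interaction of 0.47. Of its members, 17 of 29 were called lower in Nkx2-5+/- hearts (again against 5.16%). Nkx2-5+/- replicate 3 stood apart in both lists, with list means of 10.49 and 9.35. The other Nkx2-5+/- arrays lay at 9.51 to 9.64 and 8.78 to 8.96. The epicardium list had medians of 0.38 and -0.23, and 6 of 19 interactions called above 0. Among them were Tcf21 at 0.84 (adjusted p = 0.0166) and Bnc1 at 1.0 (adjusted p = 0.0166). The erythroid list had -1.0 and 1.34, and 16 of 17 interactions called below 0 with a median of -2.34.

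The interaction calls moved with the red cell genes and with single arrays. With the erythroid mean as a covariate limma called 0 interactions (677 at an unadjusted p under 0.05). With the cell cycle mean, an alternative added after the data were seen, it also called 0 (2019 unadjusted). The erythroid genes themselves had 16 of 17 interactions called, so this covariate cannot separate red cell content from the interaction. The count of interaction calls was 6 without Nkx2-5+/-;Brg1+/- replicate 1 and 8 without replicate 2. It was 625, 14, 3224 and 560 without Nkx2-5+/- replicates 1, 2, 3 and 4, 495 without Brg1+/- replicate 2, and 615, 543 and 597 without wild-type replicates 1, 4 and 5. Fitting only the 4 groups left 25.

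**Figure D5:**
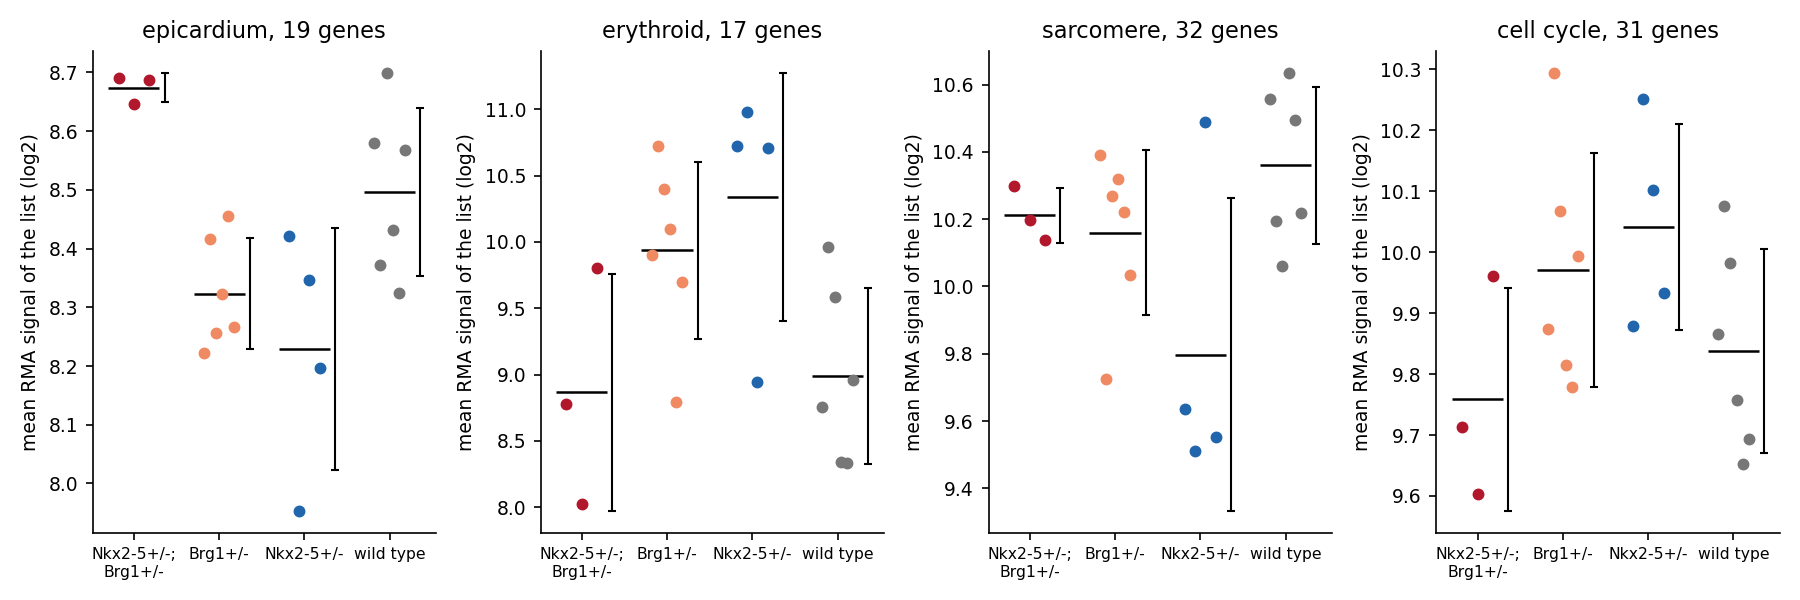
Mean log2 signal of the genes of 4 lists (y axis), 1 point per array, in Nkx2-5+/-;Brg1+/-, Brg1+/-, Nkx2-5+/- and wild-type hearts from left to right, with the group mean as a line and the SD as a bar. The epicardium mean lies at 8.65 to 8.69 in Nkx2-5+/-;Brg1+/- arrays and at 8.22 to 8.46 in Brg1+/- arrays, and the erythroid mean overlaps.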

How the data were processed

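Total RNA of E11.5 mouse hearts was measured on 27 arrays. The deposited values are log2 signals that the authors summarised by RMA in Affymetrix Power Tools (per the submitters' processing notes, without versions). No genome build is given in the sources used here. Of 28815 probe sets, 21780 had 1 symbol, 1605 several and 5430 were not listed in the platform annotation. Where a gene had more than 1 probe set (998 genes), the brightest on average was kept, leaving 19935 genes, of which 19853 matched RefSeq's gene table of GRCm38.p6, used for names and neighbours. The array medians lay between 6.20 and 6.33.

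A mean per genotype group was fitted over all 27 arrays with limma 3.58.1 in R 4.3.3 and eBayes (21 residual and 6.71 prior degrees of freedom, no trend), two-sided, with Benjamini-Hochberg adjustment within each comparison. The genes and lists were chosen with earlier results of these data known. Arrays carry no counts, so their number limits the precision. Named were the targeted genes, the called genes, the 10 genes with the smallest p in each direction where under 5 passed, and from each list its defining members or the 2 with the smallest p. Further members whose groups did not overlap, and neighbours on chromosome 10, were named after their values were seen. Clone and predicted names were left out. Lists were described by counts, medians and means per array, and no list was tested as a set.

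Alternatives were a further quantile normalization, equal array medians, removal of the genes with the lowest means, a trended robust prior, the compared groups alone, the mean of probe sets, weights per array, a block for the replicate number, the erythroid, Y-linked or cell cycle mean as a covariate, each array left out, and removal of both arrays with a Smarca4 signal against the label. The fit was tested on simulated data. Figures used matplotlib 3.10.9.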

Additional observations from a re-analysis of the deposited data

Results flagged for a closer look

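In Brg1+/- hearts, 1 array lay apart from the other 5 in 5 of the 55 sets of values examined, where chance gives about 1 in 20. These were Myrf in replicate 1 at 8.08, the smooth muscle list mean in replicate 2 at 8.81, the macrophage list mean in replicate 4 at 6.22, the liver list mean in replicate 6 at 6.56 and the neural list mean in replicate 3 at 6.92.

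The effect of Nkx2-5 loss differed between hearts with 1 and with both copies of Brg1 (limma interaction, adjusted p under 0.05) for 44 of the 127 genes looked at one by one. Over all genes 2.23% were called above 0 and 2.72% below. Some of the 127 were named for a small p in the difference between Nkx2-5+/-;Brg1+/- and Brg1+/- hearts. That difference is part of the interaction, so the count is no result about these genes as a set. The interaction was above 0 for 30 of the 44. Among these were Tbx5 at 0.88, Cyp2c68 at 1.06, Tph2 at 0.42, Cdh3 at 0.80, Apela at 1.12, Aebp1 at 1.09, Svep1 at 0.79, Myrf at 1.03, Slc4a4 at 0.82 and Plxna4 at 0.84. Of the epicardium list, Tcf21 stood at 0.84, Upk3b at 0.79, Bnc1 at 1.0, Sulf1 at 1.02 and Sema3d at 0.96. Of the transcription and growth factor genes, Gata4 stood at 0.65, Gata6 at 0.81, Zfpm2 at 0.58, Hand2 at 0.64, Nr2f2 at 0.86, Shox2 at 1.31, Bmp4 at 0.97 and Tgfb3 at 0.66. The others above 0 were Fbln2 at 1.15, Vsnl1 at 1.16, Cox7a1 at 0.92, Itga8 at 0.89, Krt7 at 0.93, Csf1r at 0.95 and Mrc1 at 1.0.

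The interaction was below 0 for 14 genes. They included the red cell genes Gata1 at -2.81, Epor at -2.76, Klf1 at -2.18, Alas2 at -2.08, Tfrc at -1.91 and Hba-x at -0.73. The cell cycle genes Mki67 and Ccnd3 stood at -1.77 and -1.05. The others were Asns at -1.46, Acp1 at -1.08 by its brightest probe set, Prpf18 at -0.98, Hmgn5 at -0.87, Ppm1d at -0.84 and B4galt3 at -0.58. None of the interactions over all genes was called with the erythroid mean as a covariate (limma, 677 at an unadjusted p under 0.05). That covariate is a mean of genes with called interactions of their own, so it cannot separate red cell content from the interaction.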

How the results depend on the processing

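The 4 calls between Nkx2-5+/-;Brg1+/- and Brg1+/- hearts became 2 without the genes of lowest mean, 1372 with array weights, 1 with the erythroid mean as a covariate and 2 with the cell cycle mean. Leaving out 1 array gave 0 to 7 calls. The replicate numbers did not pair the arrays (correlations of same-numbered deviations 0.02, -0.27 and 0.32), and with the replicate number as a block 97 genes passed. The 987 interaction calls became 25 with the 4 groups alone, 4235 with array weights, 0 with the erythroid or the cell cycle mean as a covariate, 3258 without the pair of arrays against their Smarca4 label, and 6 to 3224 with 1 array left out. The cell cycle covariate and the removal of that pair were chosen after seeing the data. The causes were not tested, except that fewer genes or arrays entered some settings. Over 27 named genes, 495 of 564 alternative values kept their direction and side of the threshold, 29 lost the call, 40 gained it and 0 reversed. The epicardium median lay between 0.33 and 0.44 in 21 alternatives. The 3 Nkx2-5+/-;Brg1+/- arrays limit every value.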

Other observations

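Among cell types not described above, the endothelium list had 22 of 25 members above 0 with a median log2 difference of 0.18 between Nkx2-5+/-;Brg1+/- and Brg1+/- hearts, and no member had an adjusted or an unadjusted limma p under 0.05. Kdr, a receptor of vascular endothelial growth factor, stood at 0.46 (limma adjusted p = 0.607). The liver list had 13 of 18 members above 0 with a median of 0.20, and Apob had signals of 5.54, 5.28 and 7.37 against 5.00, 5.37 and 5.88. The stress list had 10 of 22 members above 0, and its amino acid response genes Asns and Trib3 stood at -0.86 and -0.95 (adjusted p = 0.478 and 0.513). In the foregut epithelium list Krt7 stood at 0.51 (adjusted p = 0.254) and Cdh1 at 0.33 without overlap (adjusted p = 0.523).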
